A study of Mus musculus with 6 samples.

Results

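Glycosyltransferases of the Golgi are the enzymes that build the sugar chains of glycoproteins and glycolipids, and 11 families of their genes were examined in mouse bone marrow-derived basophils (BMBAs). A gene was a member when its symbol carried one of the family names St3gal, St6gal, St6galnac, St8sia, Fut, Galnt, B3gnt, B4galt, B3galt, Gcnt or Mgat followed by a number, and by a letter in some Mgat genes. This rule used no measured value itself, but it was set with earlier results of these data known. It found 79 members among the 37043 gene symbols of the count table. The study stimulated BMBAs of C57BL/6J WT mice with 10 ng/mL IL-3, or with PBS as the control, for 6 h and sequenced the RNA of 3 cultures per group. All 6 cultures had been grown from bone marrow for 7 days with 0.3 ng/mL of cytokine, named as IL-3 in the methods, and basophils had been enriched on beads against CD49b. Both groups were therefore grown in low IL-3 beforehand. The mice that gave the cultures are not named in the labels, so the replicates measure the spread between cultures. The paper does not say whether the cultures of a group were grown apart before stimulation.

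A sugar chain is assembled one residue at a time. Galnt enzymes start mucin-type O-glycans on serine or threonine, Mgat and Gcnt enzymes open branches, and B4galt, B3galt and B3gnt enzymes lengthen them. Sialyltransferases and several fucosyltransferases cap the ends, whereas Fut8 adds the core fucose of N-glycans. In leukocytes a capped chain that holds both sialic acid and fucose, sialyl Lewis x, is the structure that selectins bind on blood vessel walls, and sialic acid is also what the Siglec receptors recognise. Several enzymes of a family can add the same sugar.

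Library totals ran from 10537540 to 13999287 counts, and the members together took between 0.187% and 0.262% of the counts of a library. Levels are given in CPM, counts scaled to library size with TMM factors. A count of 0 in a library allows for as many as 3 counts, which is 0.233 to 0.296 CPM and covers counting error only. Of 7 basophil markers all were detected, with a summed level of 10131 to 11295 CPM in PBS and 14801 to 14999 CPM in IL-3. Of these 4 were called higher and 2 lower. Transcripts of other cells were present as well. The 9 markers of monocytes and macrophages summed to 11960 to 12916 CPM in PBS and 6205 to 6833 CPM in IL-3, with 8 called lower and 1 higher. The 7 mast cell markers summed to 874 to 977 CPM in PBS and 1481 to 1612 CPM in IL-3, with 5 called higher. Neutrophil markers summed to 122 to 158 CPM in PBS and 194 to 257 CPM in IL-3, with 3 of 7 tested called higher, Retnlg among them, and 1 lower. Eosinophil markers summed to 155 to 173 CPM and 95.6 to 136 CPM, with 3 of 5 called lower and Prg2 called higher. Erythroid markers summed to 100.04 to 219 CPM and 54.6 to 101 CPM, with 2 of 4 called lower, both genes of alpha-globin. Markers of T and NK cells summed to 6.54 to 11.5 CPM and 29.8 to 33.5 CPM, with Nkg7 called higher of 2 tested, and those of B cells to 4.91 to 8.72 CPM and 3.83 to 6.28 CPM, with 1 of 3 called lower. The dendritic cell markers, mostly Itgax, summed to 77.9 to 85.0 CPM and 67.6 to 76.4 CPM, with Itgax at a log2 fold change of -0.17 (adjusted p 0.0531). Alas2 of the erythroid, Gzma of the T and NK cell and Cd209a of the dendritic cell list were at 0 in every library. The part of these other cells in the values below was not tested, and in bulk RNA fewer cells of a type and less RNA per cell cannot be told apart.

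Stimulation with IL-3 shifted the glycosyltransferase genes in both directions. Of the 79 members, 53 were expressed highly enough to be tested. With the quasi-likelihood test of edgeR across all genes and an adjusted p under 0.05, 18 of these 53 members were higher and 16 were lower in IL-3-stimulated BMBAs, which is 34.0% and 30.2% of the tested members. Among all 16675 genes tested, 18.0% were higher and 20.2% were lower, together 38.2%. The median log2 fold change of the tested members was 0.0055, against -0.0033 over all genes, whereas the median size of the change was 0.55 against 0.29. In 34 tested members, or 64.2%, the 3 libraries of one group lay beyond the 3 of the other, a pattern that 48.2% of all tested genes showed. The split of the calls depended on scaling. With library totals in place of TMM, which moved the median log2 fold change of all genes to -0.17, 12 members were called higher and 20 lower.

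**Figure D1:**
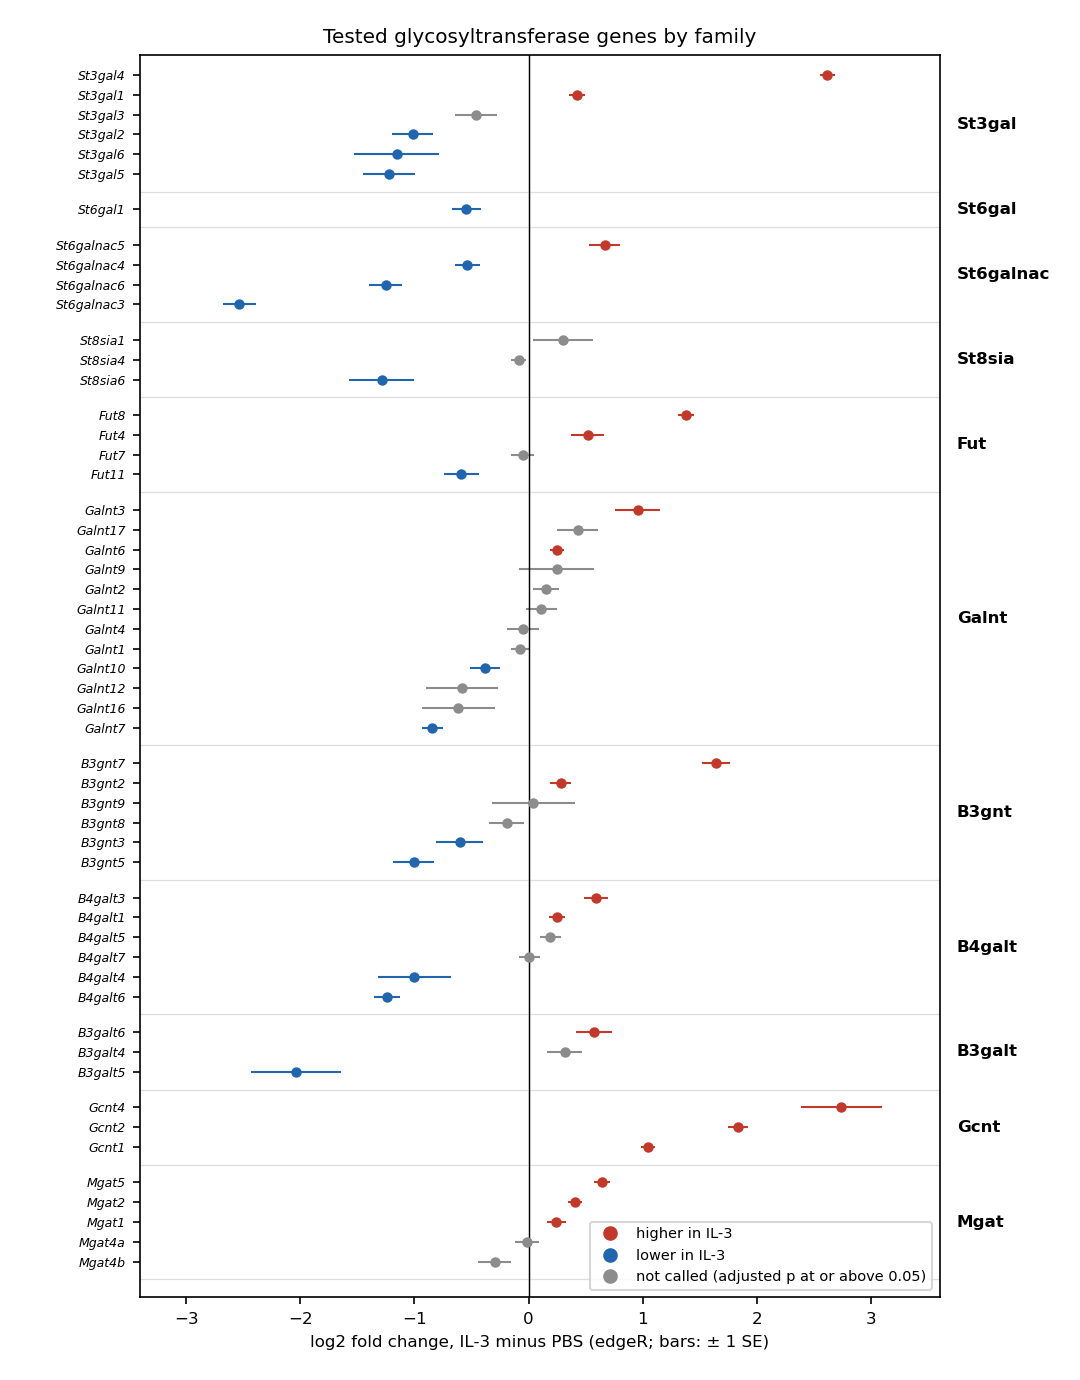
Log2 fold change of each of the 53 tested members (x axis, IL-3 minus PBS, bars ± 1 SE), grouped by family, with members called higher in red, lower in blue and not called in grey. All 3 tested Gcnt members lie to the right of 0, and the sialyltransferase families span the range from 2.62 for St3gal4 to -2.53 for St6galnac3.

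The sequence upstream of the 5 members with the largest changes is shown first, because IL-3 signals through the transcription factor STAT5, whose known motif is TTCNNNGAA. The windows are those of RefSeq on GRCm38.p6, 300 bases from 250 before to 50 after the start of a transcript, and capitals mark the motif. The motif reads the same on both strands and was searched in that form alone. St3gal4 and St6galnac3 held no match in their windows. B3galt5, which was lower, held 1 match, TTCCTTGAA, 10 bases upstream of the start, in one of its 3 windows. Gcnt2 held 1 match, TTCTGTGAA, 227 bases upstream of the start, in one of its 3 windows. Gcnt4 held 2 matches in one of its 2 windows, TTCCAGGAA 170 bases upstream and TTCTGAGAA 5 bases downstream of the start. Gcnt4 reached the level needed for testing only in the IL-3 libraries, and B3galt5 only in the PBS libraries. The direction of their calls was thus set by that level.

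St3gal4, chr9:35116815-35117114, minus strand: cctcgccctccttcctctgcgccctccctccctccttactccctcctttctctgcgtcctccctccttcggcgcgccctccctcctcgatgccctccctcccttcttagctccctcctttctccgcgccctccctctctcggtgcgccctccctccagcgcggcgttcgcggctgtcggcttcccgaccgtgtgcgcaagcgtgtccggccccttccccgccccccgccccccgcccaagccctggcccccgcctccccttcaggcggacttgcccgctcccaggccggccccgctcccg

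St6galnac3, chr3:153725084-153725383, minus strand: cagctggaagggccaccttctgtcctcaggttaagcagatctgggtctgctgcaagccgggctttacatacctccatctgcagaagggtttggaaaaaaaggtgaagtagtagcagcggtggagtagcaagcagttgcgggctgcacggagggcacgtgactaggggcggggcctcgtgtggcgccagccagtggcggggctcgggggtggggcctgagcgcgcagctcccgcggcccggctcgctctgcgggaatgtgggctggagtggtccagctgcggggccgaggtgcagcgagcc

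Gcnt2, chr13:40886508-40886807, plus strand: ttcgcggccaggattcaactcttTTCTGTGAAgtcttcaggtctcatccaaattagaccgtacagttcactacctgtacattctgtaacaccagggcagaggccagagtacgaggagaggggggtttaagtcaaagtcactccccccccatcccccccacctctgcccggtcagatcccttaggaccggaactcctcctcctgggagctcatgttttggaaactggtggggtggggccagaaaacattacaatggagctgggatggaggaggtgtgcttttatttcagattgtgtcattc

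Gcnt4, chr13:96924094-96924393, plus strand: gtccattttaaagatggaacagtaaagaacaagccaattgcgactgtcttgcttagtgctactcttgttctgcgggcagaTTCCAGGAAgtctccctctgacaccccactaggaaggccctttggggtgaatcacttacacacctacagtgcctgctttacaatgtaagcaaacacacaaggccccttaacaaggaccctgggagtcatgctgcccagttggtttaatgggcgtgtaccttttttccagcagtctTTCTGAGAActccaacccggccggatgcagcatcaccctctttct

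B3galt5, chr16:96235551-96235850, plus strand: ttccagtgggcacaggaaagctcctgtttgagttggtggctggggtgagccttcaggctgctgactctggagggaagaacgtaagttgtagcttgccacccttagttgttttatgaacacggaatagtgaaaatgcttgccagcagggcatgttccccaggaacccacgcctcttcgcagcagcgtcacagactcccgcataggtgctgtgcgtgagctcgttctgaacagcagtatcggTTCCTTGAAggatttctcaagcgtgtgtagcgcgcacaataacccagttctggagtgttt

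Of the 58 members with a window in that table, 5 held the motif. They were Gcnt2, Gcnt4, B4galt1 and Mgat2, all called higher, and B3galt5, called lower, where for Gcnt4 and B3galt5 the level needed for testing set the direction. That is 4 of the 16 members called higher that had a window and 1 of the 14 called lower. Among all genes called higher 10.2% had a match, among those called lower 7.95%, and among all genes with a window 9.55%. Counted by window, 5.95% of those of members and 8.30% of all windows held it. A match describes letters in this window and does not show that a factor binds there.

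Sialyltransferases attach sialic acid to the end of a chain, and their changes went in both directions. Of 20 members 14 were tested, of which 3 (21.4%) were called higher and 8 (57.1%) lower, against 18.0% and 20.2% of all genes. Their median was -0.54 on the log2 scale. St3gal4, which adds sialic acid in alpha2,3-linkage to the galactose at the tip of N-acetyllactosamine chains, had 66.5, 81.4 and 72.7 CPM in the PBS libraries and 467, 443 and 442 CPM in the IL-3 libraries. Every IL-3 library lay more than 5 times above every PBS library. The PBS libraries averaged 73.5 ± 7.46 CPM and the IL-3 libraries 451 ± 14.0 CPM (SD, n = 3 each). The rise was 6.14-fold, or 2.62 on the log2 scale (SE 0.0691, adjusted p 7.01e-14). The gene lies on chromosome 9 (35046576 to 35119268, minus strand, GRCm38). No alternative moved its log2 fold change outside 2.46 to 2.69.

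Of the other 5 St3gal genes 1 was called higher and 3 were called lower, against 18.0% and 20.2% of all genes. St3gal1, which caps the core of mucin-type O-glycans, had 85.0, 92.7 and 96.8 CPM in PBS and 113, 132 and 122 CPM in IL-3, a log2 fold change of 0.42 (adjusted p 0.000163). St3gal2, which acts on the same O-glycan core and on gangliosides, had 10.7, 8.15 and 7.84 CPM in PBS and 4.54, 4.66 and 4.03 CPM in IL-3, and fell by 1.02 on the log2 scale (adjusted p 0.000359). St3gal1 and St3gal2 thus changed in opposite directions. St3gal5, whose product makes the ganglioside GM3, had 9.90, 8.15 and 7.05 CPM in PBS and 2.96, 5.0 and 2.79 CPM in IL-3, a log2 fold change of -1.22 (SE 0.228, adjusted p 0.000503). St3gal6 was rarer, at 3.19, 2.37 and 2.82 CPM in PBS and 2.27, 1.0 and 0.62 CPM in IL-3. Its groups did not overlap, and its log2 fold change was -1.16 with an adjusted p of 0.0230. That call was lost without PBS replicate 1 (adjusted p 0.0762), PBS replicate 3 (0.0522), IL-3 replicate 2 (0.0885) or IL-3 replicate 3 (0.114). Without IL-3 replicate 1 its log2 fold change was -1.79, and without IL-3 replicate 3 it was -0.80. St3gal3 was at -0.46 with an adjusted p of 0.0596, and its groups overlapped. It was called lower with library totals, upper-quartile scaling or iterated TMM, and without PBS replicate 2 or IL-3 replicate 1.

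The St6galnac enzymes add sialic acid to the N-acetylgalactosamine of O-glycans and gangliosides, and all 4 tested members were called, 3 lower and 1 higher, against 20.2% lower and 18.0% higher over all genes. St6galnac3 had 22.7, 24.0 and 23.8 CPM in PBS and 4.05, 3.41 and 4.65 CPM in IL-3. The PBS libraries were close together and all lay above the IL-3 libraries. The log2 fold change was -2.53 (SE 0.145, adjusted p 9.27e-10), a 5.79-fold fall. St6galnac6 had 16.7, 14.2 and 18.2 CPM in PBS and 6.71, 6.50 and 7.37 CPM in IL-3, and fell by 1.25 on the log2 scale (adjusted p 4.03e-06). St6galnac4 had 34.4, 28.6 and 32.0 CPM in PBS and 22.0, 19.4 and 24.1 CPM in IL-3, with a log2 fold change of -0.54 (adjusted p 0.000978). St6galnac4 and St6galnac6 are neighbours on chromosome 2 with 10 bases between their annotated ends, on the same strand. St6galnac5 rose, from 8.02, 7.89 and 8.81 CPM in PBS to 14.0, 13.2 and 12.1 CPM in IL-3 (log2 fold change 0.67, SE 0.137, adjusted p 0.00113). St6galnac3 and St6galnac5 lie on chromosome 3 with 216 kb between them, both on the minus strand, and changed in opposite directions.

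Sialic acid in alpha2,6-linkage on the galactose of N-glycans is added by St6gal1. Its level was 16.1, 13.6 and 15.5 CPM in PBS and 10.1, 10.7 and 10.2 CPM in IL-3, and its log2 fold change was -0.55 (SE 0.129, adjusted p 0.00324). The paralog St6gal2 was not tested, with at most 2 counts in a library. Among the enzymes that extend sialic acid with further sialic acid, St8sia4, a polysialyltransferase, was the most abundant at 96.2, 101 and 107 CPM in PBS and 93.4, 89.8 and 103 CPM in IL-3. Its groups overlapped (log2 fold change -0.09, adjusted p 0.352), although it was called lower with library totals (-0.25, adjusted p 0.00810). St8sia6 was at 2.95, 2.72 and 3.79 CPM in PBS and at 1.38, 1.0 and 1.47 CPM in IL-3, and fell by 1.29 on the log2 scale (adjusted p 0.00205). St8sia1, which makes the ganglioside GD3, was at 0.30 and was not called (adjusted p 0.414).

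These changes altered the makeup of sialyltransferase transcripts. Counts of the 20 genes summed to 384, 397 and 410 CPM in PBS and to 753, 741 and 744 CPM in IL-3. St3gal4 held 17.3%, 20.5% and 17.7% of that sum in the PBS libraries and 62.0%, 59.9% and 59.5% in the IL-3 libraries. The share of St8sia4 went from 25.5% ± 0.456 to 12.8% ± 0.924 and that of St3gal1 from 23.0% ± 0.787 to 16.4% ± 1.38 (SD, n = 3 each). The share of St3gal1 fell although its level rose. Within the St6galnac family the share of St6galnac3 went from 29.4% ± 2.37 to 8.74% ± 0.826, and that of St6galnac5 from 10.3% ± 0.505 to 28.5% ± 3.09. These shares are of counts, to which longer transcripts give more.

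**Figure D2:**
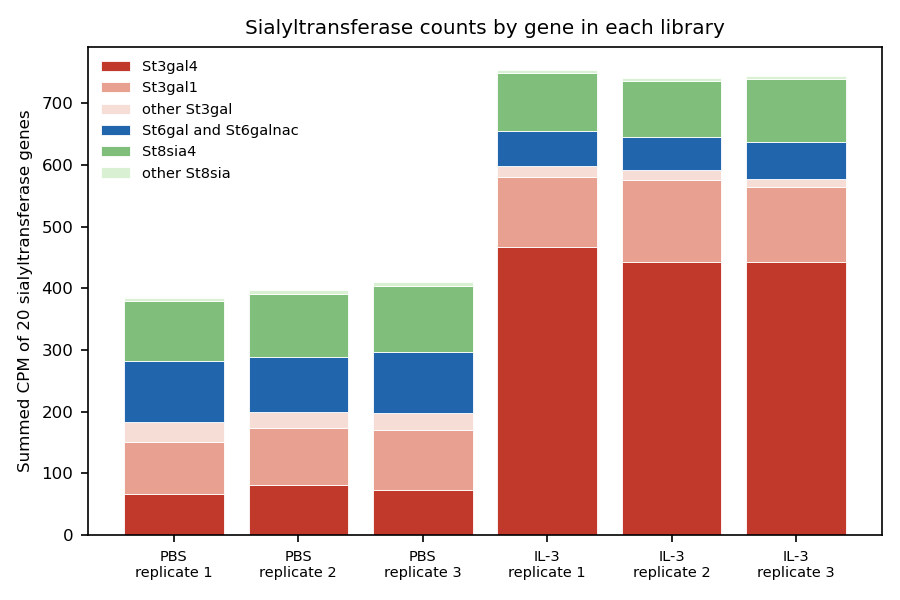
Summed CPM of the 20 sialyltransferase genes in each library (bar height, y axis in CPM), split by gene or gene group as coloured. The sums are 384 to 410 CPM in PBS and 741 to 753 CPM in IL-3, and the St3gal4 part grows from 66.5 to 81.4 CPM to 442 to 467 CPM.

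Fucosyltransferases were called in 3 of the 4 tested members, 2 higher and 1 lower, where 38.2% of all genes were called. Fut8, which adds the core fucose of N-glycans, had 76.5, 80.6 and 88.4 CPM in PBS and 224, 220 and 195 CPM in IL-3. All IL-3 libraries were above 2 times the highest PBS library, and the log2 fold change was 1.38 (SE 0.0707, adjusted p 2.60e-10). It is on chromosome 12 (77238125 to 77476338, plus strand). Fut4, an alpha1,3-fucosyltransferase of the Lewis x pathway, had 9.74, 9.73 and 12.1 CPM in PBS and 17.4, 14.2 and 13.7 CPM in IL-3, and its log2 fold change was 0.52 (adjusted p 0.00981). The call of Fut4 was lost with library totals (adjusted p 0.0740) and without IL-3 replicate 1 (0.0579). Fut7, which completes sialyl Lewis x in leukocytes, had 29.9, 27.4 and 34.0 CPM in PBS and 29.2, 31.0 and 28.0 CPM in IL-3. The groups of Fut7 overlapped, with a log2 fold change of -0.05 (SE 0.0986, adjusted p 0.729). Fut11 had 20.5, 24.8 and 31.7 CPM in PBS and 18.8, 18.6 and 14.0 CPM in IL-3, and fell by 0.59 on the log2 scale (adjusted p 0.00660). Fut1, Fut2, Fut9 and Fut10 were too rare to be tested. Fut10 had 9, 9 and 12 counts in PBS and 1, 6 and 1 counts in IL-3, and was called lower when low counts were not filtered.

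All 3 tested genes of the Gcnt family, which open beta1,6-branches, were called higher, where 18.0% of all genes were, and the 5 genes of the family summed to 176 to 196 CPM in PBS and 402 to 442 CPM in IL-3. Gcnt1 makes the core 2 branch of O-glycans, on which sialyl Lewis x is displayed on PSGL-1. Its libraries had 178, 157 and 177 CPM in PBS and 335, 356 and 369 CPM in IL-3, with a log2 fold change of 1.05 (SE 0.0620, adjusted p 1.47e-09). Gcnt2, which makes the I branch of N-acetyllactosamine chains, had 17.3, 18.6 and 17.8 CPM in PBS and 62.8, 59.8 and 69.3 CPM in IL-3, and rose by 1.84 on the log2 scale (SE 0.0880, adjusted p 1.09e-10). The libraries of Gcnt1 and Gcnt2 did not overlap between groups. Gcnt4, another core 2 enzyme, was rare. It had 10, 5 and 4 counts in PBS and 42, 49 and 37 counts in IL-3, or 0.536 ± 0.248 and 3.70 ± 0.719 CPM (SD, n = 3 each). It rose by 2.74 on the log2 scale (SE 0.352, adjusted p 1.28e-05). This was the largest fitted change among the 53 tested members, and it ranged from 2.52 to 3.18 on the log2 scale over the alternatives. The PBS libraries of Gcnt4 all lay below the level needed for testing. It was thus tested through IL-3 alone, which set the direction of its call, and the size of its change rests on few PBS counts. Gcnt3 and Gcnt7 had at most 10 counts in any library.

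**Figure D3:**
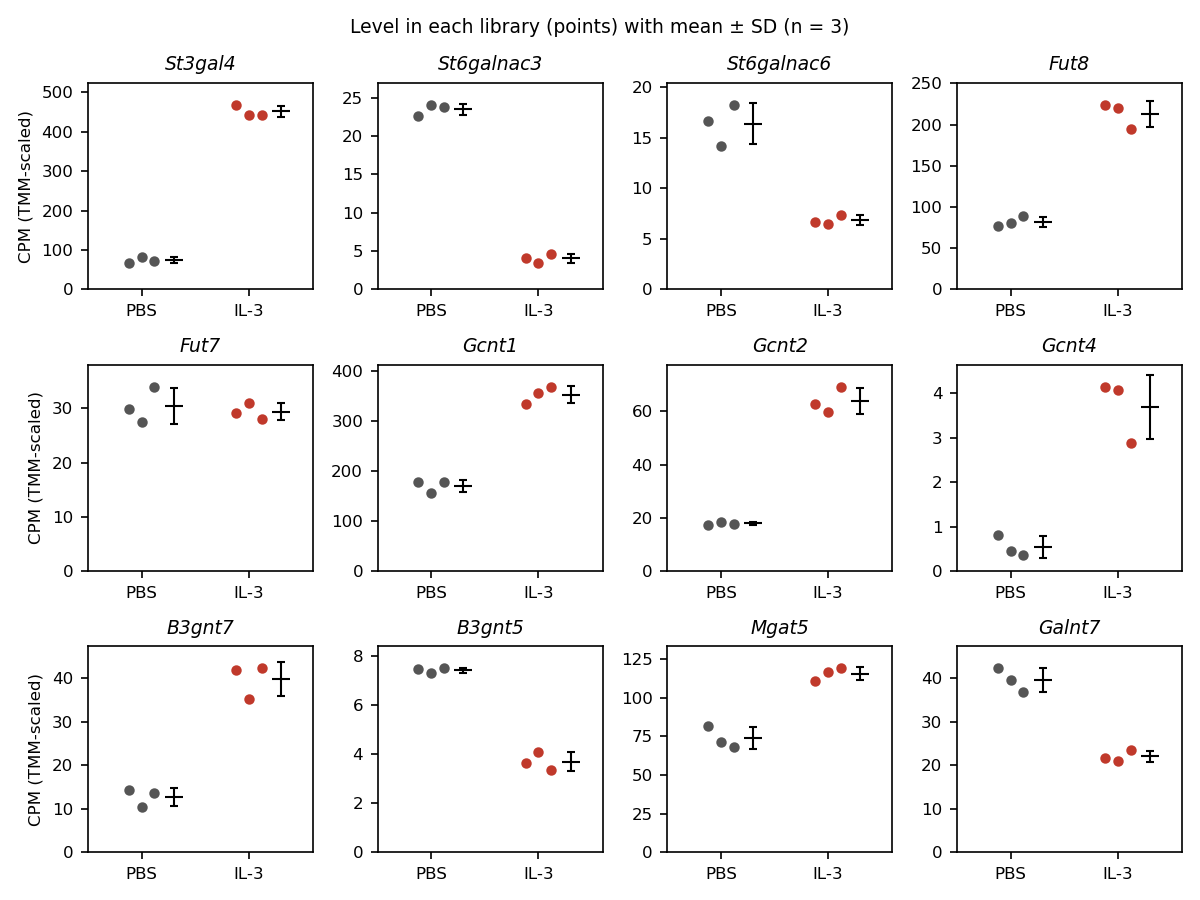
Level in TMM-scaled CPM (y axis from 0) of 12 members in each PBS library (grey points) and IL-3 library (red points), with the mean ± SD of 3 libraries as a black bar. The groups are apart in 11 of the panels, and in Fut7 the IL-3 points lie within the PBS range of 27.4 to 34.0 CPM.

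Most Mgat enzymes open branches of N-glycans, with Mgat1 acting before Mgat2. Of the 5 tested members 3 were called higher, against 18.0% of all genes, and 2 were not called. In all members of the family, summed levels went from 262 ± 8.87 to 342 ± 8.41 CPM (SD, n = 3 each). Mgat5, which makes the beta1,6-branch of tri- and tetra-antennary chains, had 81.7, 71.5 and 68.5 CPM in PBS and 111, 117 and 119 CPM in IL-3, a log2 fold change of 0.65 (SE 0.0706, adjusted p 2.30e-06). Mgat2, which completes biantennary chains, had 88.7, 85.8 and 94.1 CPM in PBS and 122, 123 and 111 CPM in IL-3, a log2 fold change of 0.41 (adjusted p 9.76e-05). Mgat1, which acts first, was called at 0.24 (adjusted p 0.0337), but its groups overlapped. Its call was lost with the replicate block (adjusted p 0.0546), with library totals (0.538), with iterated TMM (0.0537), and without PBS replicate 1 (0.138), PBS replicate 2 (0.112) or IL-3 replicate 1 (0.189). Mgat4a and Mgat4b, which make the beta1,4-branch, had log2 fold changes of -0.01 and -0.30 and were not called (adjusted p 0.935 and 0.120), although Mgat4b was called with library totals. Mgat3, which adds the bisecting residue, had no count in any library.

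The Galnt enzymes start O-glycans. Of 17 members 12 were tested, 2 were called higher and 2 lower, which is 33.3% of those tested against 38.2% of all genes. Galnt6 was the most abundant, at 282, 250 and 285 CPM in PBS and 307, 323 and 341 CPM in IL-3. The IL-3 libraries lay above the PBS libraries by a small margin, with a log2 fold change of 0.25 (SE 0.0610, adjusted p 0.00424) that was not called with library totals (0.085, adjusted p 0.300). Galnt3, its close paralog, had 6.63, 7.19 and 11.4 CPM in PBS and 14.6, 13.8 and 20.1 CPM in IL-3, and rose by 0.95 (SE 0.197, adjusted p 0.00114). Galnt7, which prefers peptides that already carry a sugar, had 42.3, 39.5 and 36.8 CPM in PBS and 21.6, 21.1 and 23.4 CPM in IL-3, and fell by 0.84 (SE 0.0928, adjusted p 2.51e-06). Galnt10, of the same kind, was at -0.38 with an adjusted p of 0.0274, which was above 0.05 with DESeq2 (0.0599) and without PBS replicate 1 (0.108), PBS replicate 3 (0.0524) or IL-3 replicate 2 (0.0957). The broadly expressed Galnt1 and Galnt2 were at -0.07 and 0.15 and were not called, although Galnt1 was called with library totals. Galnt2 shared 88.0% of its 50-base stretches with Gm20388 and Galnt4 shared 7.38% with Poc1b, so their counts are uncertain.

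Enzymes that lengthen the chains went both ways. Of the B3gnt genes, which add N-acetylglucosamine to galactose, 2 of 6 tested members (33.3%) were called higher and 2 (33.3%) lower, beside 18.0% and 20.2% of all genes. B3gnt7, an enzyme of poly-N-acetyllactosamine and keratan sulfate chains, had 14.2, 10.4 and 13.7 CPM in PBS and 41.9, 35.3 and 42.4 CPM in IL-3, and rose by 1.64 on the log2 scale (SE 0.123, adjusted p 2.76e-08). B3gnt2, the main enzyme of such chains, had 32.2, 37.4 and 40.3 CPM in PBS and 44.1, 42.1 and 47.2 CPM in IL-3. Its log2 fold change was 0.28 (adjusted p 0.0245), and the call was lost with library totals (adjusted p 0.369) and without PBS replicate 1 (0.123), IL-3 replicate 1 (0.0538) or IL-3 replicate 3 (0.0972). B3gnt2 also shared 64.0% of its 50-base stretches with Gm28048, so its counts are uncertain. B3gnt5, which starts the lacto-series glycolipids, had 7.44, 7.28 and 7.49 CPM in PBS and 3.65, 4.08 and 3.34 CPM in IL-3, and fell by 1.0 (SE 0.180, adjusted p 0.000341). B3gnt3, which extends core 1 O-glycans, had 4.74, 5.61 and 4.58 CPM in PBS and 3.16, 3.08 and 3.57 CPM in IL-3, with a log2 fold change of -0.60 (adjusted p 0.0302). B3gnt3 lost its call with no filter on low counts (adjusted p 0.0539), with DESeq2 (0.0968), and without PBS replicate 2 (0.107), IL-3 replicate 1 (0.0740) or IL-3 replicate 2 (0.0933).

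Of 6 tested B4galt genes, which add galactose, 2 (33.3%) were called higher and 2 (33.3%) lower, beside 18.0% and 20.2% of all genes. B4galt1, the main enzyme that adds galactose to N-acetylglucosamine, had 139, 120 and 130 CPM in PBS and 145, 151 and 164 CPM in IL-3. Its log2 fold change was 0.25 (SE 0.0673, adjusted p 0.00814), and it was not called with library totals (adjusted p 0.338) or without PBS replicate 2 (0.0523). B4galt3 had 18.0, 17.8 and 20.5 CPM in PBS and 26.5, 28.8 and 29.6 CPM in IL-3, and rose by 0.59 (SE 0.104, adjusted p 0.000279). B4galt6, an enzyme of lactosylceramide, had 29.9, 30.9 and 32.8 CPM in PBS and 12.8, 11.7 and 15.0 CPM in IL-3, and fell by 1.24 (SE 0.114, adjusted p 3.19e-07). Its partner in that step, B4galt5, was at 66.9 ± 7.73 and 76.3 ± 8.35 CPM (SD, n = 3 each) and was not called (log2 fold change 0.19, adjusted p 0.121). B4galt5 was called with the replicate block, with no filter on low counts and without IL-3 replicate 2. B4galt4 was rare, at 3.84, 3.59 and 1.85 CPM in PBS and 1.88, 1.25 and 1.55 CPM in IL-3. PBS replicate 3 lay within the IL-3 range, and the call (log2 fold change -1.0, adjusted p 0.0205) was lost without PBS replicate 1 (0.0963), PBS replicate 2 (0.0738), IL-3 replicate 2 (0.0851) or IL-3 replicate 3 (0.0546). B4galt7, which builds the linker of glycosaminoglycans, was at 0.01 and was not called.

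Of 3 tested B3galt genes 1 was called higher and 1 lower, where 38.2% of all genes were called. B3galt6, which adds the next galactose of the glycosaminoglycan linker, had 7.36, 6.40 and 8.37 CPM in PBS and 12.5, 10.5 and 10.1 CPM in IL-3, with a log2 fold change of 0.58 (adjusted p 0.00859). It was not called with library totals (adjusted p 0.0537). B3galt4, which makes the ganglioside GM1, had 8.02, 10.4 and 7.66 CPM in PBS and 11.8, 10.7 and 10.0 CPM in IL-3. It was not called (log2 fold change 0.32, adjusted p 0.123), except without PBS replicate 2 (0.46, adjusted p 0.0414). B3galt5, which makes type 1 chains, had 24, 18 and 21 counts in PBS and 6, 6 and 3 counts in IL-3, a log2 fold change of -2.04 (SE 0.397, adjusted p 0.000721). Its IL-3 libraries all lay below the level needed for testing. It was thus tested through PBS alone, which set the direction of its call. B3galt1 had no count in any library.

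The 26 members that were not tested had at most 12 counts in a library, and 2 of them, B3galt1 and Mgat3, had none. Without the filter on low counts Fut10 was the only one of them called. On the CPM scale their groups were apart in 3 cases, Fut10, St8sia2 and B3galt2, the last 2 named after their values were seen. The share of such genes among all untested genes was not counted, and the 48.2% given above covers tested genes only. St8sia2 had 5, 5 and 6 counts in PBS and 1, 3 and 0 in IL-3, and B3galt2 had 2, 5 and 5 counts in PBS and 5, 8 and 6 in IL-3, so that its groups met at 5 counts before scaling.

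Dividing CPM by the length of the longest coding transcript in GENCODE M21 allows members to be ordered by level. In PBS the highest was Galnt6 at 71.7 ± 5.03 CPM per kb, followed by Gcnt1 at 37.1 ± 2.67, St3gal4 at 35.1 ± 3.56, Mgat2 at 34.2 ± 1.62 and B4galt1 at 32.5 ± 2.39 CPM per kb (SD, n = 3 each). From Gcnt1 on, the PBS libraries of each pair of neighbours in this order overlapped. In IL-3 the order was St3gal4 at 215 ± 6.69, Galnt6 at 85.2 ± 4.53, Gcnt1 at 76.7 ± 3.77, Fut8 at 63.3 ± 4.65 and Mgat2 at 45.5 ± 2.61 CPM per kb, and the libraries of neighbours in this order did not overlap. St3gal4 stood 3rd among the members in PBS and 1st in IL-3. St6galnac3 stood 33rd in PBS and 47th in IL-3. This order rests on the length used. With the median length of coding transcripts, an alternative chosen after seeing the data, St3gal4 stood 1st in both groups, and St6galnac3 5th in PBS and 23rd in IL-3. The most abundant fucosyltransferase per length in both groups was Fut8, followed by Fut7 at 14.7 ± 1.59 CPM per kb in PBS and 14.2 ± 0.722 CPM per kb in IL-3.

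**Figure D4:**
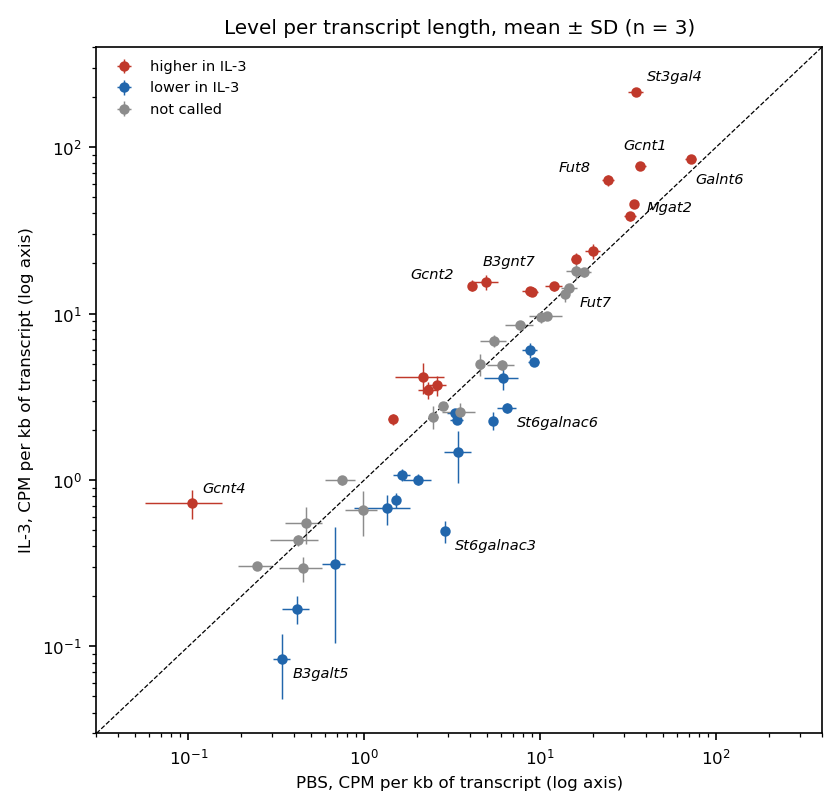
Mean level of the 53 tested members in PBS (x axis) against IL-3 (y axis), both in CPM per kb of the longest coding transcript on log axes, with bars of ± 1 SD (n = 3) and a dashed line of equal levels. St3gal4 moves from 35.1 to 215 CPM per kb and St6galnac3 from 2.88 to 0.494 CPM per kb.

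Genes that work beside the members were counted from lists of the same pathways, to be read against 18.0% higher and 20.2% lower among all genes. Sugar nucleotide synthesis and transport, which supplies the donors, had 4 genes called higher and 2 lower among 22 tested, with a median log2 fold change of -0.02. Among those higher were Gfpt1, the entry enzyme of the hexosamine pathway (0.67), and Gnpnat1 of the same pathway (0.88). On the route to CMP-sialic acid, Nanp fell by 1.11 and Cmas by 0.30, while Gne, Nans and the transporter Slc35a1 were at 0.26, 0.04 and -0.20 and were not called. Nanp, Cmas, Gne, Nans and Slc35a1 were named after their values were seen.

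Other Golgi glycosyltransferases had 4 genes called higher and 4 lower among 19 tested. Lfng, which extends O-fucose on Notch receptors, went from 22.4 ± 3.42 to 95.4 ± 2.92 CPM (log2 fold change 2.09, adjusted p 3.65e-11), B4galnt1, which makes the ganglioside GM2, from 90.9 ± 2.32 to 142 ± 9.78 CPM (0.64, adjusted p 7.96e-07), and Ggta1, which adds the alpha-galactose epitope, fell by 0.82. The enzyme of core 1 O-glycans, C1galt1, was at 0.16 and was not called (adjusted p 0.105), whereas its chaperone C1galt1c1 rose by 0.36. Both were named after their values were seen. Among 8 genes of N-glycan trimming 3 were higher and 2 lower, and their paralogs diverged, with Man1a at 0.94, Man2a2 at 0.79 and Man2a1 at -0.51.

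Of 10 tested enzymes that remove sugars 6 were called lower and 1 higher, and the median of the list was -0.28 on the log2 scale. Hexa, a subunit of beta-hexosaminidase, fell by 0.81, while the beta-galactosidase Glb1 rose by 1.33. The lysosomal sialidase Neu1, named after its values were seen, fell by 0.40 (adjusted p 0.000119). Of 7 tested Siglecs 4 were lower and 1 higher. Cd22 fell by 0.87 and Cd33 rose by 1.07. Siglecg, called lower, averaged 1.06 ± 0.0904 CPM in the PBS and 0.227 ± 0.0267 CPM in the IL-3 libraries (SD, n = 3 each), the latter below the level of 3 counts. Siglecg was likewise tested through PBS alone, which set the direction of its call.

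In the list of selectin ligand carriers and sulfotransferases, 4 of 11 tested genes were higher and 2 lower. Cd24a, a small carrier protein rich in O-glycans, went from 55.0 ± 5.47 to 744 ± 103 CPM (log2 fold change 3.76). Selplg, which encodes PSGL-1, the main selectin ligand of leukocytes, rose from 236 ± 18.2 to 319 ± 5.29 CPM (log2 fold change 0.43, adjusted p 2.40e-05).

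Of the 34 called members, 15 have exons that overlap a gene on the opposite strand in the annotation, among them St3gal4, Fut8, Gcnt2, Gcnt4, B3gnt7 and Mgat5. The sources used here do not state how counting treated strand, and without strand reads of both genes cannot be told apart. B3gnt2 was the only called member that shared more than 5% of its 50-base stretches with another gene.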

How the data were processed

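Bulk RNA-seq libraries were made from PBS- and IL-3-stimulated BMBAs. According to the methods of the study, polyadenylated RNA was bound to oligo-dT beads, and the cDNA made on them was amplified as a whole and fragmented for Illumina sequencing. No molecular identifiers are described, so copies made by PCR were counted as reads. After trimming with Cutadapt 3.4 and mapping to reference RNA with Bowtie2, the authors deposited raw read counts per gene symbol for all 6 libraries in a single table. The methods name GRCm38, the submitters' processing notes GRCm39. The table holds symbols only, and coordinates, lengths and shared 50-base stretches were taken from GENCODE M21 (GRCm38), which held all 79 members.

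The analysis ran in R 4.3.3 with edgeR 4.0.16 (filterByExpr, TMM, quasi-likelihood F test with group as the only term). The p-values are two-sided and adjusted by Benjamini-Hochberg over the 16675 genes tested. The SE was derived from the F value. The study itself used TCC for this comparison. The script was tested on simulated data. The members and lists were chosen with earlier results of these data known. Values in every library were given for members called with an absolute log2 fold change of at least 0.5 whose higher group averaged 1 CPM or more, and for the most abundant member of each family. St3gal1 and Fut7 were given in the same way, chosen after their values were seen. From each list of related genes the 3 with the smallest adjusted p below 0.05 were named, except for some genes that are not reported here. Same-numbered libraries did not deviate together (r -0.0087, -0.016 and -0.022 for replicates 1, 2 and 3).

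Alternatives were DESeq2 1.42.0 size factors or Wald test, library totals, upper-quartile scaling, iterated TMM (3 rounds), no filter on low counts, 1 CPM in 3 libraries, the edgeR exact test, limma-voom (limma 3.58.1), a replicate block, leaving out each library, adjusted p below 0.1 or 0.01, and glmTreat against a fold of 1.5.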

Additional observations from a re-analysis of the deposited data

How the results depend on the processing

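Of 36 members, the 34 called and 2 that led their family without being called, 24 kept their direction and their side of the threshold under 16 alternatives, which were every one but glmTreat and the other p thresholds, and the other 12 kept their direction there. No alternative called any of the 34 in the opposite direction. Testing against a fold of 1.5 kept 6 members higher and 9 lower and lost the other 19 calls, since it asks for a larger change. With a library left out, members called higher numbered 15 to 19 and those called lower 12 to 16. The replicate block gave 18 higher and 16 lower. It lost Mgat1 and gained B4galt5, and changed no other call. As the replicate numbers gave no sign of pairing, this is no paired result. The median of the tested members was -0.16 with library totals, which shift all genes, -0.018 with iterated TMM, -0.040 with no filter, which adds rare genes, and -0.0082 to 0.038 with 1 library left out. For iterated TMM and the left-out libraries the cause was not tested. The ranks per transcript length change with the length used, as given above. The 26 untested members had at most 12 counts in a library.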
